A study of Schizosaccharomyces pombe with 127 samples.

Results

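The ppk genes of fission yeast (Schizosaccharomyces pombe) are protein kinase genes that carry the letters ppk and a number in place of a functional name. They were taken as the genes whose symbol in the array's annotation is ppk followed only by digits, which gave 21 of the 4929 features measured. Each had 2 probes. The members are ppk1, ppk3, ppk6, ppk8, ppk9, ppk11, ppk13, ppk14, ppk15, ppk16, ppk22, ppk24, ppk25, ppk26, ppk27, ppk29, ppk30, ppk31, ppk32, ppk33 and ppk38. The gene ppk18 had no single-gene probe and is no member, and 12 further genes that have a ppk number as a synonym are named otherwise on the array.

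A protein kinase transfers phosphate from ATP to other proteins, and kinases carry signals on nutrients, stress and cell cycle stage. When fission yeast runs out of nitrogen, cells stop growing, divide at small size, recycle proteins by autophagy and prepare to mate. The ppk genes do not form a single family. Among them are ppk9, a relative of AMP-activated kinase, ppk15, a kinase of the DYRK family related to Yak1 of budding yeast, and ppk29, ppk30 and ppk38, which belong to the Ark1/Prk1 family, known in budding yeast for control of actin patches and endocytosis. ppk11 is a germinal centre type kinase, ppk14 is related to the kinases that act on lipid flippases in budding yeast, ppk31 is related to the Greatwall kinases, and ppk32 is a relative of the SCY1 family of kinase-like proteins.

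The samples were single-gene deletion strains, in most of which a kinase gene is missing. They were compared after 60 min of nitrogen starvation (62 deletion strains) and at 0 min, in log phase at 30 °C in minimal medium with nitrogen (63 deletion strains). The wild type had 1 array at 60 min and 1 at 0 min. Strain RNA was labelled with Cy5 and hybridised against a pool of wild-type RNA labelled with Cy3, so a level is a log2 ratio to that pool, centred on the median of its array, with the probes of a gene averaged. Of the deletion strains 62 had both times, and hal4 had the 0 min array alone. The strains that lack no kinase are atf1 and rst2, which lack transcription factors, cyr1, which lacks adenylate cyclase, and cgs1, which lacks the regulatory subunit of protein kinase A. Each strain had 1 array per time, and nothing in the labels says whether a strain is 1 clone. The p-values of the starvation change measure the spread between strains. Those of the deletion effects averaged over both times rest on how far strains differed between the times. Whatever both arrays of a strain share, such as clone or array series, counts there as a deletion effect. Array series here means a split by the array number in the sample title, with the first series below 1500. No label names a batch or a hybridisation date.

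A gene was left out in the strain that lacks it. Strains are called by the gene deleted, also where the label gives a shortened locus (ppk27 for BC337_04, ire1 for AC167_01); those labelled skp1, prk1 and spm1 are called gsk3, srb10 and pmk1. The 60 min arrays labelled byr1, atf1, ppk22, cdk11, ppk33 and srb10 did not show the deletion that the 0 min array of the same strain showed, and results were therefore also computed without these 6 strains. The SD of the log2 ratios within an array averaged 0.98 at 60 min and 0.36 at 0 min. Over the single probes with a value on every array, 9 of 2016 pairs of 0 min arrays correlated below -0.3 (lowest -0.42). The lowest correlation of a 60 min pair was 0.65, and the wild-type arrays were included in both. The direction follows the dyes stated in the labels.

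The deleted ppk gene was first examined in the 16 strains that lack a member. Relative to the mean of the other deletion strains it lay at -1.72 at 60 min (SD 0.95, n = 16 strains) and at -1.82 at 0 min (SD 1.08), both on the log2 scale. No other deletion array was lower in 13 of the 16 strains at 60 min and in 14 at 0 min. The genes ppk9, ppk25 and ppk8 stood out at 60 min, at -3.15, -3.11 and -2.82 from the other strains, and ppk22, ppk25 and ppk14 at 0 min, at -3.72, -3.66 and -3.33. The size depends on the signal of the pool at that probe and ranks no deletion.

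In 4 strains the deleted gene was not the lowest at one or both times. In the ppk15 strain ppk15 was the lowest at 60 min (-2.78 from the others) and ranked 3 from the lowest at 0 min (-1.20). In the ppk22 strain ppk22 ranked 3 at 60 min (-0.53) and was the lowest at 0 min (-3.72). In the ppk33 strain ppk33 ranked 11 of 62 at 60 min (-0.33) and was the lowest at 0 min (-0.83). In the ppk38 strain ppk38 lay within the spread of the others at both times, at -0.01 at 60 min and -0.02 at 0 min, where the SD of the other strains was 0.32 and 0.23. The probes therefore do not clear the label of the strain called ppk38, and a probe outside the deleted part would give the same values.

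The question put to every member was how its transcript changed with nitrogen starvation over the deletion strains. The change was the 60 min level minus the 0 min level of the same strain, tested with limma over all 4929 features. A gene was called at 0.05 after adjustment and a 2-fold change or more (1 on the log2 scale). Under this rule 2 of 21 ppk genes rose, ppk8 and ppk30, and none fell. Of all features 7.53% rose and 8.76% fell by that rule, 16.3% together, so the share among ppk genes is near the background. With the adjusted p alone, 17 ppk genes passed, 13 of which rose and 4 fell, where 87.4% of all features passed, 46.9% rising and 40.5% falling. At a limit of 1.5-fold 6 ppk genes rose and none fell, where 17.3% of all features rose and 15.5% fell. The 13 and the 6 include ppk32, whose 2 probes moved in opposite directions. The levels at 60 min and 0 min overlapped between strains for every ppk gene, 0 of 21 being free of overlap, against 6.23% of all features.

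The largest rise was that of ppk8 (SPAC22G7.08). Its level at 60 min was lowest at 0.13, had a median of 1.44 and was highest at 3.78 over the 61 strains, against 0 min levels with a lowest value of -0.36, a median of -0.06 and a highest value of 0.20. All 61 strains were higher at 60 min than at 0 min, and only the gad8 strain at 60 min reached into the 0 min range. The mean change was 1.60 ± 0.70 (SD, n = 61; standard error 0.09; limma adjusted p = 3.67e-27). Both probes rose, by 1.98 at the second and by 1.23 at the first.

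At 60 min the strains spread more in ppk8 than in any other member. The SD over strains was 0.68 at 60 min and 0.12 at 0 min, the smallest 0 min SD among the members. The lowest 60 min level belonged to the strain lacking gad8, a kinase downstream of TOR complex 2 (0.13), with a change of 0.19. The next lowest level was 0.63, in the array labelled ppk22, and the next lowest change was 0.65, in chk1. The highest levels belonged to the ppk27 strain (3.78) and to mde3 (3.14), with changes of 3.93 and 3.11. In the fit of the 60 min arrays alone, which sets each strain against the spread of the others, ppk8 was 2.27 above the other strains in the ppk27 strain, with a limma adjusted p of 0.13. These strains were chosen after their values were seen.

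The second gene past 2-fold was ppk30 (SPBC6B1.02), the Ark1/Prk1 family member. Its 60 min levels had a lowest value of 0.31, a median of 1.05 and a highest value of 1.41, against 0 min levels with a lowest value of -0.36, a median of -0.01 and a highest value of 0.42. All 62 strains were higher at 60 min than at 0 min, and the ranges met at the low end of the 60 min arrays, in chk1 (0.31), hhp2 (0.37) and the array labelled ppk22 (0.41). The mean change was 1.04 ± 0.28 (SD, n = 62; standard error 0.04; limma adjusted p = 5.35e-39). The probes gave 1.11 and 0.97. The mean stood close to the 2-fold line, which the first probe alone did not reach, and it was 0.75 after quantile normalization, still a rise. Its family members moved otherwise: ppk29 rose by 0.25 ± 0.19, higher in 57 of 62 strains, and ppk38 fell by 0.44 with an SD of 0.35, lower in 54 of 61 strains.

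**Figure D1:**
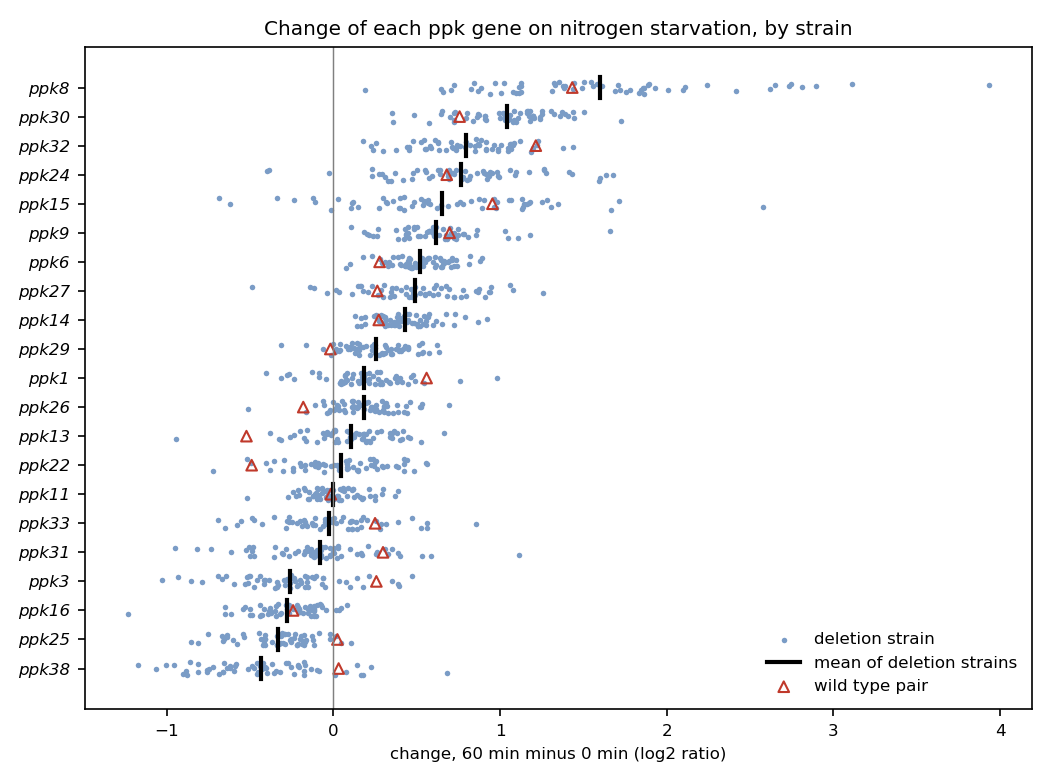
Change of each ppk gene in each deletion strain, on the log2 ratio scale (x axis), with genes in order of their mean (y axis); points are strains, bars are means and open triangles are the wild-type pair. ppk8 has the highest mean (1.60) and the widest range, from 0.19 to 3.93, and ppk38 the lowest mean (-0.44).

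Other members rose by less than 2-fold. ppk24 rose by 0.77 ± 0.43 (SD, n = 62; limma adjusted p = 8.82e-22), with 60 min levels of -0.70 to 1.53 (median 0.49) and 0 min levels of -1.20 to 0.36 (median -0.23). It was higher at 60 min in 59 of 62 strains. The DYRK kinase gene ppk15 rose by 0.65 ± 0.57 (SD, n = 61; limma adjusted p = 3.53e-13), with 60 min levels of -0.65 to 1.63 (median 0.45) and 0 min levels of -1.54 to 0.79 (median -0.19). It was higher in 54 of 61 strains. ppk8, ppk15 and ppk24 were the 3 members whose change varied most over strains, where the median SD over the ppk genes was 0.28 and over all features 0.29.

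The scatter of ppk15 differed between its probes. The first probe had an SD over strains of 0.95 at 60 min and of 0.95 at 0 min, and its change ran from -1.98 to 3.35, higher at 60 min in 40 of 61 strains. The second probe had an SD of 0.29 at 60 min and of 0.36 at 0 min, and its change was positive in 60 of 61 strains. Both probes rose on average, the first by 0.36 (adjusted p = 0.0035) and the second by 0.95 (adjusted p = 5.83e-27, limma). The highest change of the averaged probes, 2.57, was that of the ppk33 strain, whose 60 min label is in doubt.

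ppk9, the relative of AMP-activated kinase, rose by 0.62 ± 0.26 and was higher at 60 min in 61 of 61 strains. The levels of ppk9 ran from 0.28 to 1.22 at 60 min (median 0.72) and from -0.44 to 0.46 at 0 min (median 0.08). ppk6 rose by 0.52 ± 0.18, higher in 62 of 62 strains, and ppk14, the flippase kinase relative, by 0.43 ± 0.17, higher in 61 of 61. ppk27 rose by 0.49 ± 0.33, higher in 57 of 61. In each of these 4 genes both probes rose. The remaining rises were those of ppk1 (0.18), ppk26 (0.18) and ppk13 (0.11), each higher in 44 to 52 of 61 strains, though ppk13 stood at -0.020 after quantile normalization (adjusted p = 0.70). For ppk26 the first probe rose by 0.34 and the second stood at 0.03 (adjusted p = 0.41).

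At the other end, 4 genes fell, ppk38, ppk25, ppk16 and ppk3. After quantile normalization ppk38 stood at -0.021 (adjusted p = 0.73) and ppk3 at -0.084 (adjusted p = 0.13), so both lost the call, and ppk16 fell by 0.10 (limma). ppk38 had 60 min levels of -1.38 to -0.11 (median -0.69), against 0 min levels of -0.89 to 0.34 (median -0.26), so that it was below the pool in every strain at 60 min. ppk25 fell by 0.33 with an SD of 0.21, lower at 60 min in 58 of 61 strains, with 60 min levels of -0.71 to 0.03 and 0 min levels of -0.54 to 0.52. ppk16 fell by 0.28 with an SD of 0.21, lower in 57 of 61. ppk3 fell by 0.26 with an SD of 0.31, lower in 51 of 61. The 4 genes that did not pass were ppk22 (0.04, adjusted p = 0.24), ppk11 (-0.00, adjusted p = 0.99), ppk33 (-0.02, adjusted p = 0.57) and the Greatwall relative ppk31 (-0.08, adjusted p = 0.067), all by limma.

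**Figure D2:**
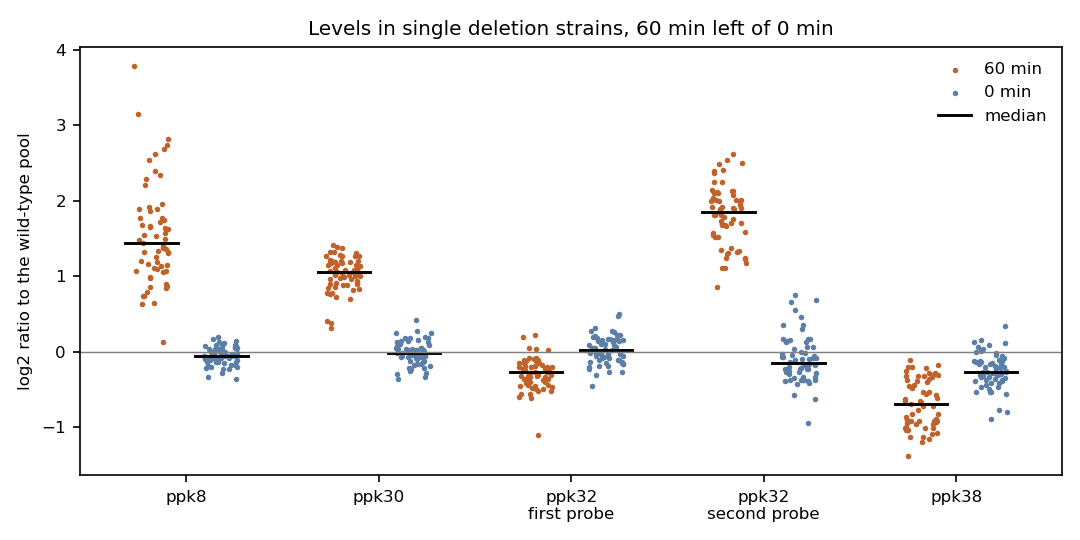
Levels of ppk8, ppk30, ppk32 (each probe) and ppk38 in single deletion strains (points; y axis, log2 ratio to the wild-type pool), 60 min left of 0 min, with medians as bars. The 2 ppk32 probes moved in opposite directions, with 60 min medians of -0.28 and 1.85.

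For ppk32 (SPBP23A10.10), the SCY1 family relative, the average of the probes hid a disagreement. The average rose by 0.79 ± 0.29 (SD, n = 61; limma adjusted p = 1.48e-30). The first probe fell, by 0.31 (SD 0.27; adjusted p = 1.21e-12), with 60 min levels of -1.10 to 0.22 (median -0.28) and 0 min levels of -0.45 to 0.50 (median 0.03). The second probe rose by 1.90 (SD 0.53; adjusted p = 6.56e-38), with 60 min levels of 0.86 to 2.62 (median 1.85) and 0 min levels of -0.95 to 0.75 (median -0.15). At the second probe the change was positive in 61 of 61 strains and the levels at 60 min lay above every 0 min level, while at the first it was negative in 54 of 61.

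The strain that lacks ppk32 was read by the same probes. The first probe lay -3.15 from the other strains at 60 min and -3.64 at 0 min, below every other deletion array at both times. The second probe stood at 0.55 above the others at 60 min, rank 55 of 62 from the lowest, and at -0.09 at 0 min, rank 28 of 63. The probe that showed the deletion thus fell on starvation, and the probe that rose did not show the deletion. Which sequence the second probe reads, and whether its target lies in the deleted stretch, was not tested, and the direction given for ppk32 depends on the choice of probe.

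Over the 21 ppk genes the change at the first and second probe differed by a median of 0.12, against 0.075 over all features. The signs were opposite in 3 ppk genes, ppk32, ppk11 and ppk33, and in 606 of the 4929 features. Only for ppk32 did both probes pass the test in opposite directions, as ppk11 and ppk33 passed with neither probe. The next largest gaps were those of ppk8 (0.75) and ppk15 (0.59), in which both probes rose.

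**Figure D3:**
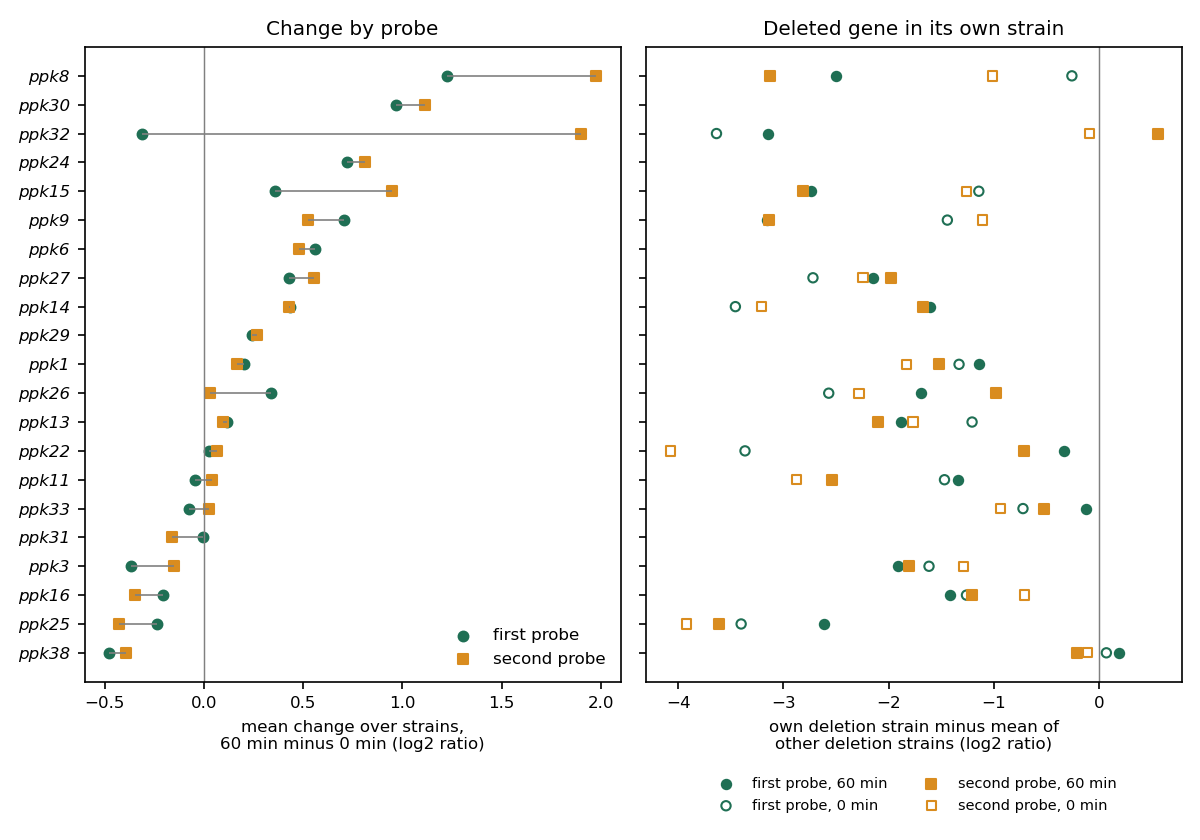
Left, mean change of each probe over strains (x axis, log2 ratio; circles first probe, squares second probe). Right, level of the deleted gene in its own strain minus the mean of the other deletion strains (filled 60 min, open 0 min) for the 16 deleted members; for ppk32 the first probe lies at -3.15 and -3.64 and the second at 0.55 and -0.09.

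The wild type had 1 pair of arrays, so its change has no replicate and no test. For the 60 min array the labels conflict: the title, which was followed, says wild type, and a further field says kinase deletion. The 60 min array belongs to the first series of array numbers and the 0 min array to a later one, so time and array series cannot be told apart in this pair. In none of the 21 ppk genes did the wild-type change lie outside the range of the deletion strains. ppk8 changed by 1.43 in the wild type, with 1.31 at 60 min and -0.12 at 0 min, and ppk30 by 0.76, with 0.88 at 60 min and 0.12 at 0 min. The wild-type change had the sign of the deletion mean in 12 of 21 genes. For ppk13 alone the wild-type change, -0.52, lay more than 2 SD from the mean of the deletion strains (0.11). For the 4 genes that fell over the deletion strains the wild-type values were 0.03 in ppk38, 0.02 in ppk25, -0.24 in ppk16 and 0.26 in ppk3.

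Other protein kinase genes gave the frame for these values. Of 85 listed, 83 were measured. Of these, 6 rose and 1 fell past 2-fold, and 53 rose and 21 fell by the adjusted p alone. Of all features 7.53% rose and 8.76% fell past 2-fold, and 46.9% rose and 40.5% fell by the adjusted p alone. The median change was 0.18 over the ppk genes, 0.25 over the other kinase genes and 0.04 over all features, and the median size of the change regardless of sign was 0.33, 0.30 and 0.35. The largest rises were those of hri1, a kinase of the translation factor eIF2 alpha (2.07 ± 0.52), atg1, the autophagy kinase, itself once numbered as a ppk (1.92 ± 0.36), srk1, a MAPK-activated kinase (1.62 ± 0.46), pka1, the catalytic subunit of protein kinase A (1.57 ± 0.44), and sid2 of the septation network (1.33 ± 0.33). The largest falls were those of ssp1, the kinase upstream of AMP-activated kinase (-1.18), ire1, the sensor of unfolded protein in the endoplasmic reticulum (-0.59), the casein kinase gene cki3 (-0.48), pat1, which holds back meiosis (-0.47), and prp4, a splicing kinase (-0.39). Among the 12 genes with a ppk synonym 6 rose and 4 fell by the adjusted p alone, and atg1 passed 2-fold.

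**Figure D4:**
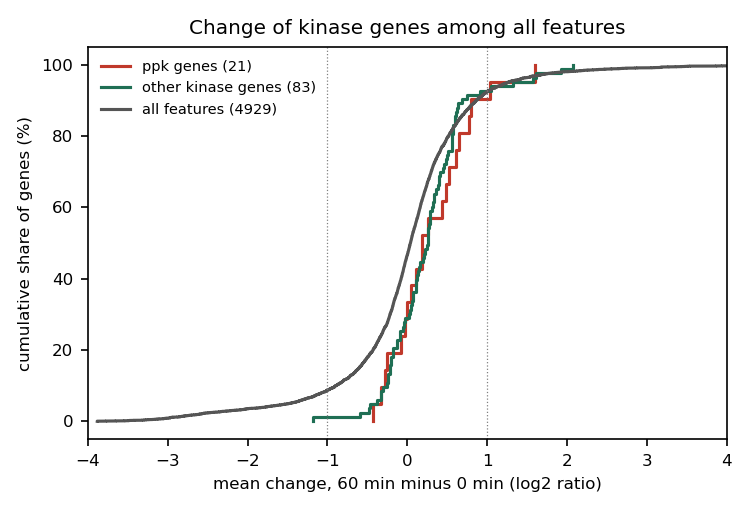
Cumulative share of genes (y axis, %) by mean change (x axis, log2 ratio) for ppk genes, other kinase genes and all features, with dotted lines at 2-fold. The ppk genes have a median of 0.18 and end at -0.44 on the low side, where 8.76% of all features fell past 2-fold.

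The next question was whether loss of 1 gene altered the transcripts of the ppk genes. For each strain the deviation from the mean of the other deletion strains was averaged over both times, with the error taken from how far strains differed between the times (limma moderation, p adjusted over all 305536 pairs of a strain and a feature). Of 1286 pairs with a ppk gene 30 passed, 17 higher and 13 lower, in 15 ppk genes and 17 strains. This is 2.33% of the ppk pairs, where 2.36% of all pairs passed, 1.02% higher and 1.34% lower, so the share among ppk genes is near the background. All 30 had the same sign at both times and at both probes, which the choice of pairs by their average favours. With each probe fitted alone, 7 of the 30 passed at both probes, 10 at the first only, 8 at the second only and 5 at neither. The deviations ranged in size from 0.32 to 1.66, and 3 reached 2-fold, where 0.33% of all pairs did.

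The largest was ppk33 (SPCC162.10) in the strain lacking cyr1, adenylate cyclase, which makes cyclic AMP. There ppk33 had a level of 1.92 at 60 min, and the next highest strain, dsk1, was at 0.66, while the median over all 61 strains was -0.20. At 0 min it had a level of 1.06, the highest of all, with gad8 next at 0.63. The mean deviation was 1.66 (standard error 0.15; limma adjusted p = 1.62e-12), at 2.11 at 60 min and 1.21 at 0 min, and both probes passed, at 2.15 and 1.17. The deleted cyr1 gene was itself the lowest at both times, and the arrays of cyr1 belong to a later series of array numbers, so genotype and array series cannot be told apart for this strain.

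The second was ppk15 in the gsk3 strain, with a mean deviation of -1.12 (standard error 0.28; limma adjusted p = 0.0134), at -1.07 at 60 min and -1.16 at 0 min. It rested on the widely scattered first probe, at -2.00 (adjusted p = 0.00569), while the second stood at -0.24 (adjusted p = 0.69). The third was ppk24 in the strain labelled wis1, which should lack the stress-pathway kinase that activates the MAP kinase, with -1.05 (standard error 0.21; adjusted p = 0.0011), at -1.18 at 60 min and -0.91 at 0 min. ppk24 was the lowest there of all strains at both times. The second probe lay at -1.65 (adjusted p = 8.09e-05) and the first at -0.44 (adjusted p = 0.39). The second ppk24 probe was the more scattered, with an SD over strains of 0.71 at 60 min and 0.64 at 0 min. At the first ppk24 probe the SD was 0.42 and 0.26. In the wis1 strain wis1 itself was not lowered, at -0.27 at 60 min and 0.06 at 0 min from the other strains, so its probes do not clear that label. Of the 16 strains with a call and a probe for the deleted gene, 13 had that gene lowest at both times, and hri1, mug27 and wis1 at neither.

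Of the 30 calls 12 fell on ppk33 and ppk1. These and the pairs that follow were picked after their values were seen. ppk33 was higher in cyr1 and in dsk1, a kinase of splicing factors (0.65), and lower in the strain labelled wis1 (-0.70), in wis4, the kinase upstream of wis1 (-0.61), in pmk1, the cell integrity MAP kinase (-0.58), and in sck2 (-0.52). The 60 min level of ppk33 was lowest of all strains in wis1, at -0.97. ppk1 was higher in hri1 (0.46), ckk2 (0.43) and the ppk18 strain (0.42), and lower in rst2 (-0.54), cgs1 (-0.47) and cyr1 (-0.47). Both probes had these signs in all 12 pairs, which the choice of pairs by their average favours. Fitted alone, both probes passed only for ppk33 in cyr1 and ppk1 in rst2, and neither passed for ppk33 in pmk1 and in sck2.

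Among the other calls, dsk1 also had ppk6 (0.45) and ppk32 (0.50) higher. For ppk32 in dsk1 neither probe passed alone, at 0.17 at the first (limma adjusted p = 0.69) and 0.84 at the second (adjusted p = 0.072). The second ppk32 probe is the one that did not show the ppk32 deletion. In rst2 ppk16 (0.87), ppk26 (0.66) and ppk13 (0.62) were higher and ppk31 (-0.68) was lower. For several of these the 0 min array carried most of the deviation. ppk16 in rst2 deviated by 0.38 at 60 min and by 1.36 at 0 min, and ppk31 in rst2 by -0.07 at 60 min and by -1.29 at 0 min. The call of ppk31 in rst2 rested on the second probe, at -1.20 (limma adjusted p = 0.0011), with the first at -0.16 (adjusted p = 0.80). ppk31 in lsk1, which lacks a kinase of RNA polymerase II, deviated by 0.32 at 60 min and by 1.20 at 0 min. ppk22 in the strain labelled mug27 deviated by 0.28 at 60 min and by 1.06 at 0 min. Each such value is 1 array. In fits of 1 time alone 1 of 1286 pairs passed at 60 min, ppk33 in cyr1, where 0.136% of all pairs did, and 7 passed at 0 min, where 0.439% did.

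**Figure D5:**
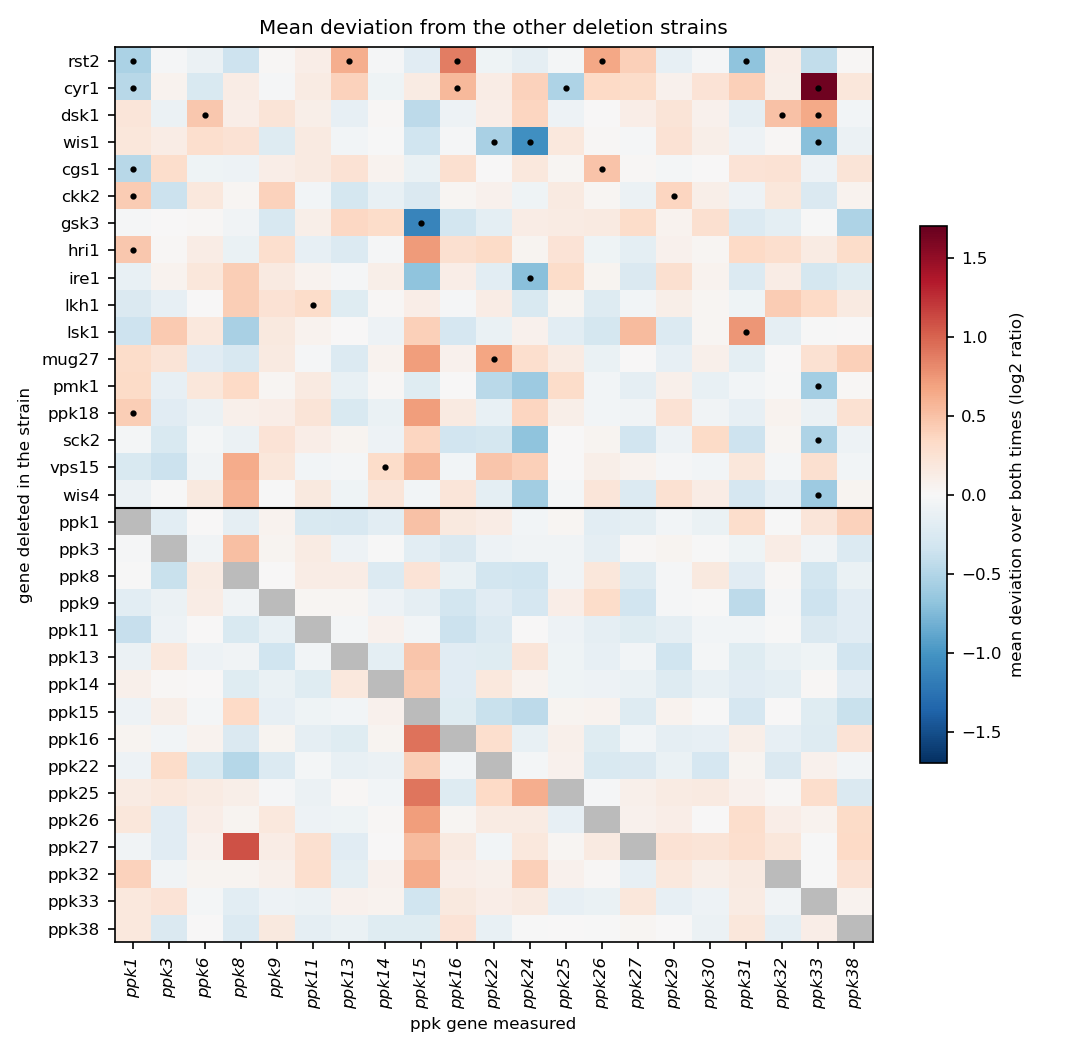
Mean deviation of each ppk gene (columns) from the other deletion strains, averaged over both times (colour, log2 ratio), in the 17 strains with at least 1 call (above the line) and in the 16 strains that lack a ppk gene (below it); dots mark adjusted p under 0.05 and grey marks the deleted gene. The darkest cell is ppk33 in cyr1 (1.66), and no dot lies below the line.

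The strains cyr1, cgs1 and rst2, which all touch the cyclic AMP pathway, held 11 of the 30 calls. That is 17.5% of their 63 ppk pairs, where 17.1% of all their pairs passed. In the other 59 strains 19 of 1223 ppk pairs passed, 1.55%, where 1.61% of all pairs did. In both sets of strains the ppk genes thus followed the rest of the features. All 3 of these strains have array numbers above those of the first series, so that genotype and array series cannot be told apart. Of the 18 calls in strains of the first series 16 passed in a fit of that series alone.

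The design also allows a direct look at 1 ppk gene lost and another measured. In the 16 strains that lack a member 0 of 320 pairs passed by the limma-moderated test, where 1.44% of all pairs in those strains did. At an unadjusted p under 0.05 there were 39 pairs, 12.2%, where 11.5% of all features passed. The count was 1 with the first probe, 4 with the second and 1 after quantile normalization. It was 4 of 280 pairs without the 6 strains of doubted label and 0 with p adjusted within each strain. Over all features 411 higher and 630 lower of 78846 pairs passed with the first probe, and 400 and 624 of 78847 with the second. After quantile normalization 214 and 177 passed, without the 6 strains 478 and 775 of 68991, and adjusted within each strain 424 and 745. In each of these fits the ppk share lay below that of all features. The smallest adjusted p was 0.0558, for ppk15 in the ppk16 strain, where ppk15 deviated by 0.93 (0.80 at 60 min and 1.06 at 0 min), with 1.51 at the first probe and 0.35 at the second. The largest deviation was that of ppk8 in the ppk27 strain, 1.08 (2.27 at 60 min and -0.10 at 0 min; adjusted p = 0.0727). The ppk18 strain, whose deleted gene was not measured here, had ppk1 higher by 0.42 at an adjusted p of 0.0472. Like cyr1, cgs1 and rst2, the ppk18, ppk27 and ppk32 strains have array numbers outside the first series. Genotype and array series cannot be told apart for them either.

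Over strains the mean deviation of ppk15 was the most variable (SD 0.48 over 61 strains), followed by ppk24 (0.36), ppk8 (0.34) and ppk33 (0.34), and ppk14 was the least (0.13). The median over the ppk genes was 0.19 and over all features 0.20. The genes ppk3, ppk8, ppk9, ppk27, ppk30 and ppk38 had no call in any strain. For ppk8 the standard error of a mean deviation was 0.34, the largest of all members, so a deviation in a single strain had to be large to pass.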

How the data were processed

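The deposited table holds linear Cy5 over Cy3 ratios, with the dyes given per the labels. What background correction and scaling the authors applied is not given in the sources used here. The median ratio of an array lay between 0.932 and 1.09. The table has 9858 probes on 127 arrays. The 6 values of 0 were set to missing. Signal over background is not given, so the number of arrays limits the precision. All value columns were mapped to samples.

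Probes were named through the platform annotation. Ratios were taken to log2, centred on the array median, and averaged per gene. R 4.3.3 with limma 3.58.1 fitted the paired change (lmFit, eBayes) and moderated the spread of the deletion effects (squeezeVar), with Benjamini-Hochberg adjustment over all features or pairs. Features with values in under 80% of the pairs were left out. The fits were tested on simulated data. This checks the calculation and does not show that the real arrays meet the assumptions behind the p-values of the deletion effects. Python 3.11.15 with numpy 2.4.6, pandas 2.3.3 and matplotlib 3.10.9 did the rest.

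Pairing followed the strain name, since both arrays of a strain have the same genotype. Their deviations from the group means correlated over features with a mean r of 0.31, above 0 in 60 of 62 strains.

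The members and the gene lists were chosen with earlier results of these data known. Named by rule were ppk genes past the test and 2-fold, the 3 whose change varied most, the 5 largest rises and falls among other kinases, called deletion pairs past 2-fold, called pairs in strains lacking a ppk gene, and ppk strains whose deleted gene was not the lowest array. Other members are given because they are members. Alternatives covered centring, quantile normalization, single probes, pairing, thresholds, the doubted arrays, the array series and the strains lacking no kinase. Protein sequences, promoters and coordinates were not analysed here.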

Additional observations from a re-analysis of the deposited data

How the results depend on the processing

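The count of ppk genes changed past 2-fold on starvation was 2. It was also 2 in the unpaired fit with no replicate block, which changed no call, and 1 after quantile normalization (ppk8). It was 1 with the first probe alone, 3 with the second probe, 6 with a limit of 1.5-fold and 17 with no fold limit. The last 3 of these counts include ppk32, whose first probe, the one that showed its deletion, fell. Over all features 371 rose and 432 fell past 2-fold. After quantile normalization 175 and 303 did, with the first probe 402 and 458, and with the second 387 and 467. The count of other kinase genes past 2-fold was 7, and 4 after quantile normalization. The 30 calls of deletion effects became 13 after quantile normalization, of which 11 were among the 30, 7 with the 0 min arrays alone, 1 with the 60 min arrays alone and 3 with a 2-fold limit. They became 44 without the 6 strains of doubted label, 39 with p adjusted within each strain, 32 with the second probe and 23 with the first. Without the 6 strains fewer pairs were tested, yet calls over all features rose as well. Calls over all features also rose with p adjusted within each strain. They fell after quantile normalization, with either probe, at either time alone and with a 2-fold limit. Only with the second probe did the ppk count move against that of all features. The other shifts had the direction of those of all features, and whether any is particular to ppk genes was not tested.

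The direction turned in 5 ppk genes. After quantile normalization the change was -0.020 in ppk13, 0.13 in ppk31, 0.18 in ppk11 and 0.13 in ppk33. There ppk13 lost the call (limma adjusted p = 0.70). ppk11 (adjusted p = 3.2e-05) and ppk33 passed as rises, though neither passed in the main fit. With the second probe alone it was 0.042 in ppk11 and 0.027 in ppk33, and with the first probe alone -0.31 in ppk32. ppk11, whose change was -0.00, also turned to 0.012 without centring, 0.0024 in the first array series, 0.0072 without the 4 strains lacking no kinase and 0.0033 with its own deletion strain kept. The cause was not tested. Of 189 alternative fits of a single ppk gene's starvation change, 171 kept direction and call and 11 turned direction, as given above. With the direction kept, 3 lost the call (ppk38 and ppk3 after quantile normalization, ppk26 with the second probe). Another 4 kept direction and gained the call (ppk31 in 3 fits, ppk22 after quantile normalization). Of 258 fits of the 30 deletion calls, 149 kept the call and 109 lost it with the same direction, 24 of these with the 0 min arrays alone, 29 with the 60 min arrays alone and 19 after quantile normalization. Of the 149, 30 were fits without the 6 strains of doubted label, which held none of the 30 calls. The strains wis1, hri1 and mug27, which held calls but had their deleted gene lowest at neither time, were not left out for that reason in any fit.

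Each strain had 1 array per time, and several 60 min labels are in doubt.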
